A study of Mus musculus with 8 samples.

Results

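The genes described here are 41 genes of the integrated stress response and of the amino acid supply that it governs. They were taken from the deposited gene counts of sorted mouse Paneth cells by matching each Ensembl identifier to a list of gene symbols. All 41 symbols matched 1 row each among the 55414 rows of the table, and all 41 had enough counts to be tested. They comprise 19 cytosolic aminoacyl-tRNA synthetases, 9 enzymes of serine, asparagine, proline, cysteine and folate one-carbon metabolism, 7 amino acid transporters, and 6 effectors or transcriptional regulators of the stress response.

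In the integrated stress response, kinases such as PERK and GCN2 phosphorylate the translation initiation factor eIF2, which slows most protein synthesis while translation of the transcription factor ATF4 increases. ATF4, paired with C/EBP proteins, raises genes for amino acid transport, amino acid synthesis and tRNA charging. The response ends when a phosphatase held by PPP1R15A or PPP1R15B removes the phosphate from eIF2. Paneth cells are secretory cells at the base of small intestinal crypts which make large amounts of antimicrobial peptides, and diphtheria toxin blocks translation at the elongation factor eEF2, a different step.

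RNA of Paneth cells sorted from mouse small intestine was sequenced as bulk mRNA in 8 libraries, 4 labelled DT TG (TG-1 to TG-4, mice whose Paneth cells express diphtheria toxin) and 4 labelled WT (WT-1 to WT-4). The series title speaks of depletion of mature Paneth cells. The promoter of the transgene, the age of the mice, the sex behind each library and the timing of toxin expression are not given in the labels or the methods used here. The study's methods describe sorting from individual C57BL/6J mice, but the labels tie no library to a named animal, so the p-values below measure the spread between these libraries, which may be partly technical. In bulk RNA, fewer cells of a type and less RNA per cell cannot be told apart.

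The libraries held 13107397 to 16218434 counts, and 15559 to 16943 genes had at least 1 count. Levels below are CPM, that is, counts divided by the library total times its TMM factor (0.845 to 1.10) and scaled to a common size. The 9 Paneth markers summed to 336639 to 424797 CPM in TG and 318006 to 471001 CPM in WT, sums that Lyz1, Defa24 and Itln1 dominate. Of the 9, edgeR called 3 lower in TG: Mptx2 (TG over WT, log2 fold change -1.35 ± 0.20, adjusted p = 0.00116; errors of fold changes are SE throughout), Mmp7 (log2 fold change -0.59 ± 0.15, adjusted p = 0.0179) and Ang4 (log2 fold change -0.57 ± 0.18, adjusted p = 0.037). The call of Mmp7 was lost without TG-2 (adjusted p = 0.0588). That of Ang4 was lost without TG-1, TG-2, TG-3, WT-1, WT-2 or WT-4, 1 at a time (adjusted p up to 0.115). Lyz1 and Pnliprp2 were fitted above 0 (0.07 and 0.50) and not called in edgeR (adjusted p = 0.832 and 0.0856). Pnliprp2 was called higher by DESeq2 (adjusted p = 0.0376), and in edgeR with total counts only (0.0323) and with a term for replicate number (0.0163). The summed enterocyte markers were higher in every TG library: the 11 genes summed to 663 to 797 CPM in TG against 493 to 581 CPM in WT, and none of the 11 was at 0 in all libraries. Anpep and Mgam, which dominate this sum, were not called (0.19 and 0.28), whereas the median log2 fold change of the 10 tested was 1.33, all 10 were fitted above 0, and 4 were called higher, namely Apoa4 (2.79), Alpi (2.56), Apob (1.07) and Mttp (0.59). The edgeR call of Apoa4 (adjusted p = 0.0483) was not made by limma voom (0.0568) or with total counts only (0.054). It was also lost without TG-1, TG-4 or any 1 WT library (up to 0.109). Of 10 immune markers, 9 stayed under 1 CPM in all 8 libraries, and Adgre1 and Cd4 were among those at 0 throughout. The summed goblet (8547 to 11834 CPM in TG, 10745 to 12499 CPM in WT), stem (1915 to 2672 and 1782 to 2482), proliferation (319 to 359 and 264 to 407), enteroendocrine (22.1 to 34.9 and 28.7 to 65.1) and tuft markers (19.4 to 62.4 and 21.2 to 45.4) overlapped between the groups in their sums. Of these 5 lists, edgeR called Axin2 higher (log2 fold change 0.52 ± 0.12, adjusted p = 0.0107) and Smoc2 lower (log2 fold change -0.35 ± 0.09, adjusted p = 0.0139) among the stem markers, neither with overlapping groups, and Tac1 was called lower among the enteroendocrine markers. With total counts only, Smoc2 was not called (adjusted p = 0.198). The part of these markers in the differences below was not tested. Replicates 1 and 2 of both groups held no Y-linked counts, whereas replicates 3 and 4 held 897 to 1564.

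Of the 19 cytosolic tRNA synthetases, 13 were called lower in TG Paneth cells with TMM scaling, and 2 (Wars1 and Rars1) when the libraries were scaled by total counts only. In edgeR's quasi-likelihood test, with p-values adjusted over all 11929 genes tested, 18 of the 41 genes (43.9%) passed the threshold of 0.05 as lower in TG, and 0 were called higher. An unadjusted p below 0.05 was found for 27 of the 41, against 3943 of all 11929 genes tested. Of all genes tested, 9.65% were called lower and 8.26% higher. The called genes were 13 of 19 cytosolic synthetases, 2 of 9 metabolic enzymes (Psat1 and Psph), 2 of 7 transporters (Slc1a4 and Slc7a5) and 1 of 6 effectors and regulators (Cebpb). The median log2 fold change (TG over WT) was -0.26 over the 41 genes and -0.37 over the synthetases, against 0.01 over all genes tested. In 23 of the 41 genes (56.1%) every TG library lay below every WT library, a pattern found in 12.0% of all genes tested, and in 0 of the 41 did every TG library lie above every WT library, against 10.0% of all genes. DESeq2 and limma voom likewise called 0 of the 41 higher.

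These counts depended on how the libraries were scaled. With total counts alone and no TMM factors, the median of all genes moved from 0.01 to 0.12, 4 of the 41 genes (Rars1, Wars1, Psat1 and Slc1a4) were called lower against 2.20% of all genes, and 4 genes (Wars1, Rars1, Farsb and Psat1) had non-overlapping groups, against 3.91% of all genes. Of the genes called across the whole table, 46.1% were higher in TG with TMM and 75% with total counts. Relative to the median of all genes, the median of the 41 was -0.27 with TMM and -0.26 with total counts, and that of the synthetases was -0.38 and -0.37. A change of scaling moves all genes nearly alike, so these relative values carry no separate support. With a correction for GC content and length, which differs from gene to gene, the median of the synthetases relative to all genes was -0.38. As a share of all counts, the 41 genes together made up 0.389% ± 0.0258 in the TG libraries and 0.442% ± 0.0412 in the WT libraries (mean ± SD over 4 each).

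**Figure D1:**
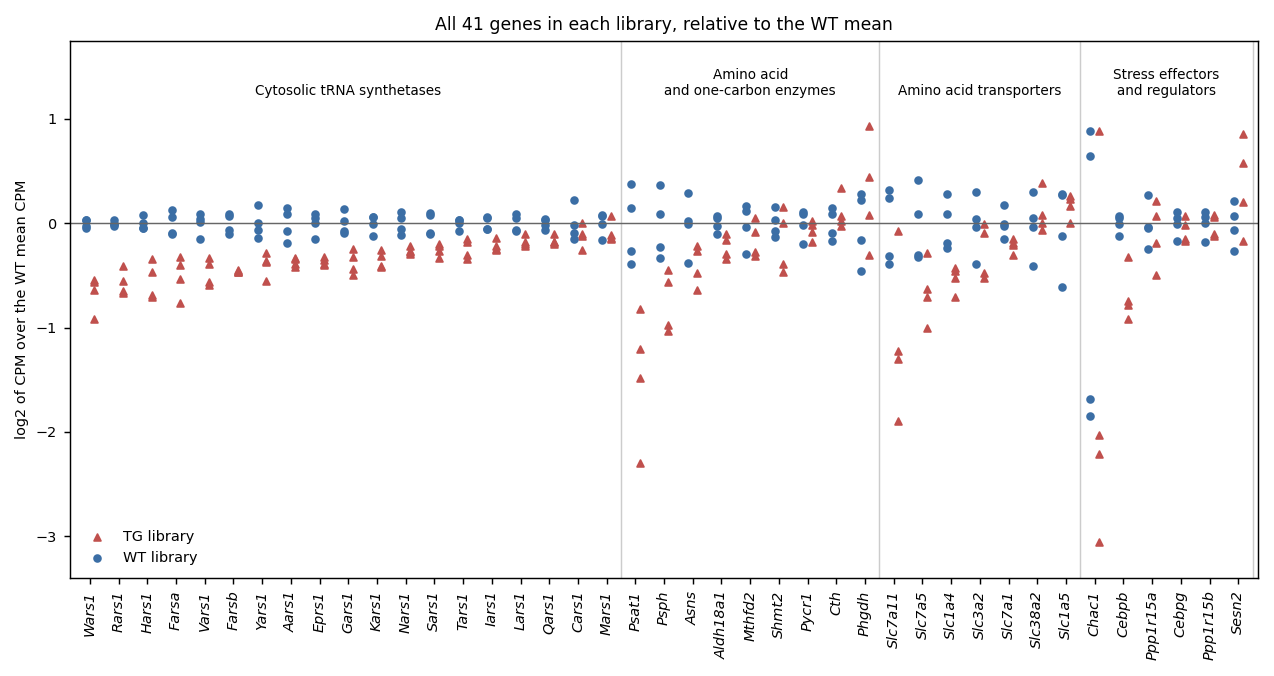
Each of the 41 genes in each library, as the log2 of its CPM over the mean CPM of the 4 WT libraries, with TG libraries as triangles and WT libraries as circles, grouped by role and ordered by fold change. The TG triangles lie below all WT circles in 17 of 19 synthetases, whereas Chac1 spreads widely in both groups.

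**Figure D2:**
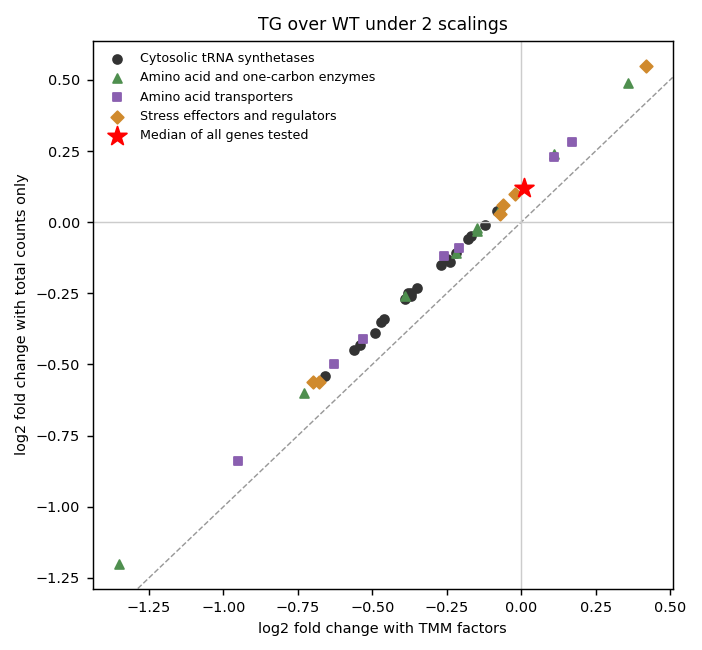
The log2 fold change (TG over WT) of each of the 41 genes with TMM factors (horizontal axis) and with total counts only (vertical axis), with the median of all genes tested as a star and the line of equal values dashed. All points and the star sit above that line by a similar amount, the star at 0.01 and 0.12.

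ATF4 and its C/EBP partners bind a composite element whose core is written TGATGNAA. It was searched on both strands from 250 bases before to 50 after the start of the canonical transcript of each gene (GENCODE on GRCm39). It was present in 9 of the 41 genes (22%), in 3.85% of 21627 promoters of the same length, and in 2.25% of the 11294 promoters of genes tested. The 41 genes were listed as members of this response, known ATF4 targets among them, so these shares are not independent of that choice. Of the 11 sites found in the 9 genes, 10 are shown 5' to 3' on the strand that reads TGATGNAA, with the element in capitals.
Aars1, chr8:111760472-111760501, minus strand: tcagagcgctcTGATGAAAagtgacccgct
Cars1, chr7:143153782-143153811, plus strand: cttccagaatcTGATGCAAccgcggcgccg
Gars1, chr6:55014945-55014974, minus strand: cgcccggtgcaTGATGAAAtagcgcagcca
Iars1, chr13:49835602-49835625, minus strand: ggaggTGATGCAAtactgacagtg
Tars1, chr15:11399741-11399770, plus strand: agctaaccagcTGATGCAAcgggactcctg
Pycr1, chr11:120534659-120534688, minus strand: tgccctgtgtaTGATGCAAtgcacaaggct
Slc7a11, chr3:50398110-50398139, minus strand: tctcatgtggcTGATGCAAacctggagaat
Slc7a11, chr3:50398091-50398120, plus strand: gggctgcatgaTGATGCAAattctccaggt
Chac1, chr2:119181519-119181548, minus strand: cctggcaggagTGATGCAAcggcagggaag
Ppp1r15b, chr1:133058833-133058862, plus strand: ctaggtccggcTGATGCAActcgccgcgtg
The element lay in 5 of 19 synthetase promoters (Aars1, Cars1, Gars1, Iars1 and Tars1), in 1 of 9 metabolic enzymes (Pycr1), in 1 of 7 transporters (Slc7a11) and in 2 of 6 effectors and regulators (Chac1 and Ppp1r15b). Aars1 and Slc7a11 held 2 sites each. Of the 9 genes with the element, 2 (Aars1 and Gars1) were called lower in TG, against 16 of the 32 without it, and the median log2 fold changes were -0.24 and -0.26. Among all genes tested that held it, 8.66% were called lower. The element in these windows is a match of letters and not a measured binding site.

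The cytosolic synthetases each join 1 or more amino acids to their tRNAs for translation on cytosolic ribosomes. All 19 were fitted below 0 (log2 fold changes -0.66 to -0.08). In other settings Mars1 was above 0, at 0.04 with total counts only and at 0.01 in the libraries without Y-linked counts. The group was also the least variable of the 4: the median coefficient of variation between libraries was 6.36% in TG and 6.77% in WT, against 13.3% and 13.7% for the metabolic enzymes, 14.6% and 19.7% for the transporters, and 19.9% and 11.2% for the effectors and regulators. No TG library was the highest of the 8 for any synthetase.

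Wars1, which charges tRNA with tryptophan (ENSMUSG00000021266, GRCm39 chr12:108825955-108860188, minus strand), had 284, 222, 286 and 268 CPM in TG-1 to TG-4, against 428, 428, 405 and 412 CPM in WT-1 to WT-4. Every TG library was below every WT library, with TG-2 the lowest (log2 fold change -0.66 ± 0.10, adjusted p = 0.00105). Rars1, the arginyl synthetase (ENSMUSG00000018848, GRCm39 chr11:35699207-35725375, minus strand), had 86.9, 72.5, 78.5 and 73.7 CPM in TG-1 to TG-4, against 118, 115, 115 and 113 CPM in WT-1 to WT-4. The WT libraries were nearly level and all above TG (log2 fold change -0.56 ± 0.08, adjusted p = 0.00107). Hars1, the histidyl synthetase, had 30.7, 31.3, 39.7 and 36.3 CPM in TG-1 to TG-4, against 50.5, 48.8, 53.1 and 48.7 CPM in WT-1 to WT-4. Here TG-1 and TG-2 were the lowest, and no TG library reached the WT range (log2 fold change -0.54 ± 0.10, adjusted p = 0.00243). The reads of Hars1 are in part uncertain, since 10.8% of its 75-base windows occur also in Hars2 or another transcript. Vars1, the valyl synthetase, had 156, 136, 162 and 138 CPM in TG-1 to TG-4, against 217, 211, 206 and 184 CPM in WT-1 to WT-4. TG-3 was the highest TG library and WT-4 the lowest WT library, and the groups stayed apart (log2 fold change -0.47 ± 0.09, adjusted p = 0.00427).

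Farsa and Farsb encode the 2 subunits of the phenylalanyl synthetase, and both were lower. Farsa had 21.3, 18.1, 24.6 and 23.3 CPM in TG-1 to TG-4, against 28.8, 33.5, 32 and 28.7 CPM in WT-1 to WT-4. Its highest TG library, TG-3, stayed below its lowest WT library, WT-4 (log2 fold change -0.49 ± 0.11, adjusted p = 0.00703). Farsb had 53.6, 53.9, 53.6 and 54.3 CPM in TG-1 to TG-4, against 77.5, 70.9, 69.1 and 78.7 CPM in WT-1 to WT-4. The 4 TG libraries of Farsb lay within 1 CPM of each other and below all WT libraries (log2 fold change -0.46 ± 0.08, adjusted p = 0.00208), with the reservation that 34.2% of its windows are shared with Sgpp2 on the opposite strand. Yars1, the tyrosyl synthetase, had 45.7, 48.3, 40.3 and 46.1 CPM in TG-1 to TG-4, against 66.8, 59.3, 53.7 and 56.4 CPM in WT-1 to WT-4. TG-3 was the lowest and WT-1 the highest (log2 fold change -0.39 ± 0.09, adjusted p = 0.0113), and 24.4% of its windows occur in other transcripts.

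Aars1, the alanyl synthetase, had 125, 126, 119 and 121 CPM in TG-1 to TG-4, against 176, 169, 139 and 151 CPM in WT-1 to WT-4. WT-1 and WT-2 were the highest libraries and the TG libraries were close together (log2 fold change -0.38 ± 0.09, adjusted p = 0.0119). Aars1 shares 13.4% of its windows, mostly with Exosc6 on the same strand. Eprs1, whose product charges tRNAs for both glutamate and proline, had 126, 127, 131 and 133 CPM in TG-1 to TG-4, against 150, 177, 173 and 167 CPM in WT-1 to WT-4. WT-1 was the lowest WT library and still above TG (log2 fold change -0.37 ± 0.08, adjusted p = 0.00838). Gars1, the glycyl synthetase, had 98.6, 104, 87.2 and 90.8 CPM in TG-1 to TG-4, against 135, 125, 115 and 117 CPM in WT-1 to WT-4. TG-3 was the lowest library, and TG-2, the highest of TG, stayed below WT-3 (log2 fold change -0.37 ± 0.09, adjusted p = 0.0125).

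Kars1, the lysyl synthetase, had 80.5, 80.6, 89.6 and 86.3 CPM in TG-1 to TG-4, against 112, 98.4, 107 and 112 CPM in WT-1 to WT-4. WT-2 was the lowest WT library and lay above TG-3 (log2 fold change -0.35 ± 0.08, adjusted p = 0.011), and the call was lost without TG-1, at an adjusted p of 0.0515. Nars1, the asparaginyl synthetase, had 210, 202, 199 and 203 CPM in TG-1 to TG-4, against 236, 253, 226 and 263 CPM in WT-1 to WT-4. The groups did not overlap, with WT-3 nearest to TG (log2 fold change -0.27 ± 0.08, adjusted p = 0.0401). Sars1, the seryl synthetase, had 86.2, 90.3, 81.9 and 89.2 CPM in TG-1 to TG-4, against 111, 96.6, 97.2 and 109 CPM in WT-1 to WT-4. WT-2 and WT-3 were nearest to TG-2 (log2 fold change -0.25 ± 0.08, adjusted p = 0.0496). Nars1 and Sars1 were the least stable calls among the synthetases: Nars1 lost its call when any 1 of TG-1, TG-2, TG-3, TG-4, WT-2 or WT-4 was left out (adjusted p up to 0.107), and Sars1 when any 1 of TG-1, TG-2, TG-3, TG-4, WT-1 or WT-4 was left out (up to 0.131). The other 10 called synthetases kept the call without any 1 library.

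The 6 synthetases that did not pass the test were Tars1 (threonine, -0.24, adjusted p = 0.0521), Iars1 (isoleucine, -0.22, adjusted p = 0.0685), Lars1 (leucine, -0.18, adjusted p = 0.14), Qars1 (glutamine, -0.17, adjusted p = 0.146), Cars1 (cysteine, -0.12, adjusted p = 0.412) and Mars1 (methionine, -0.08, adjusted p = 0.551). In the first 4 of them the TG libraries were nevertheless all below the WT libraries. DESeq2 and limma voom called Tars1 and Iars1 lower, and edgeR without WT-1 called Tars1 (adjusted p = 0.0453). Mars1 overlaps the stress gene Ddit3 on the opposite strand, and 55.0% of its windows lie in both, so its counts are uncertain.

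Levels between synthetases were compared as CPM per kilobase of canonical transcript. Wars1 was the highest in both groups (148 ± 4.16 in WT and 93.6 ± 10.5 in TG, SD, n = 4 each), followed by Nars1 (89.1 ± 6.03 and 74.1 ± 1.79). Rars1 (54.2 ± 0.911), Gars1 (50.7 ± 3.78), Vars1 (48.3 ± 3.35) and Kars1 (45.1 ± 2.73) came next in WT, and the ranges of neighbours among these 4 overlapped. Farsa (16.8 ± 1.30) and Cars1 (7.77 ± 0.931) were the lowest in WT. Of the 18 pairs of neighbours in this order, 11 overlapped over the WT libraries and 7 were separate. In TG the first 2 and the last 3 genes were the same as in WT.

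**Figure D3:**
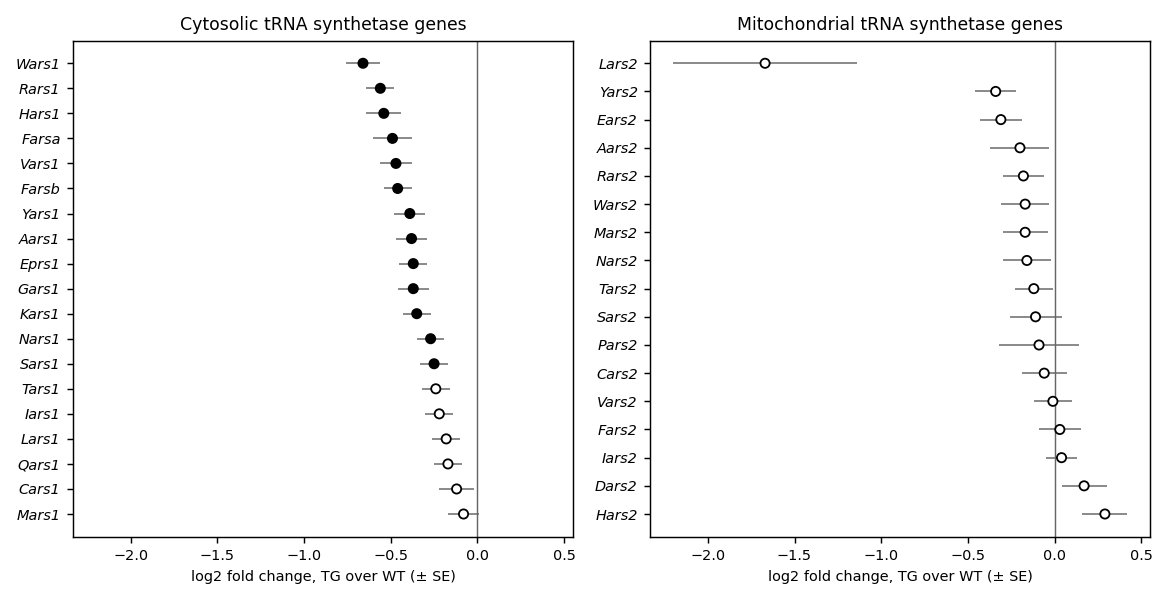
The log2 fold change (TG over WT, with SE as bars, n = 4 libraries per group) of the 19 cytosolic and the 17 mitochondrial synthetase genes, filled where edgeR called the gene lower. In the cytosolic set 13 of 19 are filled, and in the mitochondrial set 0 of 17, with Lars2 at -1.67.

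The metabolic enzymes make serine, asparagine, proline and cysteine and carry 1-carbon units. Psat1, the second enzyme of serine synthesis (ENSMUSG00000024640, GRCm39 chr19:15882039-15924701, minus strand), had 44.7, 58.3, 36.8 and 21 CPM in TG-1 to TG-4, against 134, 114, 78.4 and 85.5 CPM in WT-1 to WT-4. Its highest TG library, TG-2, was below its lowest WT library, WT-3, and this was the largest decrease of the 41 genes (log2 fold change -1.35 ± 0.32, adjusted p = 0.0309). The call was lost without TG-1, TG-3, WT-1 or WT-2, 1 at a time (adjusted p up to 0.0811). Psph, the last enzyme of serine synthesis, had 6.87, 7.45, 4.96 and 5.16 CPM in TG-1 to TG-4, against 13.1, 10.8, 8.69 and 8.1 CPM in WT-1 to WT-4. Its groups did not overlap either (log2 fold change -0.73 ± 0.18, adjusted p = 0.0157), on 68 to 164 counts per library. Phgdh, the first and committed enzyme of the same route, did not follow them: it had 28.1, 39.4, 16.7 and 21.8 CPM in TG-1 to TG-4, against 25, 24.1, 15 and 18.5 CPM in WT-1 to WT-4, with overlapping groups and TG-2 the highest of all (log2 fold change 0.36 ± 0.28, adjusted p = 0.404). Of the Phgdh windows, 21.8% occur in pseudogenes.

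Asns, the asparagine synthetase and a standard ATF4 target, had 201, 208, 155 and 174 CPM in TG-1 to TG-4, against 296, 246, 186 and 241 CPM in WT-1 to WT-4. WT-3 fell within the TG range, and the difference did not pass the threshold in edgeR (log2 fold change -0.39 ± 0.13, adjusted p = 0.0564), whereas it did so in DESeq2 (adjusted p = 0.0307), in edgeR with the correction for GC content and length (adjusted p = 0.0412) and in edgeR without WT-3 (-0.50, adjusted p = 0.0143). Mthfd2, a mitochondrial folate enzyme, had 87, 79.1, 69.1 and 67.3 CPM in TG-1 to TG-4, against 93.8, 91.1, 68.5 and 81.6 CPM in WT-1 to WT-4. Its groups overlapped (log2 fold change -0.15 ± 0.11, adjusted p = 0.384). The other 4 enzymes were not called: Aldh18a1 (-0.22, adjusted p = 0.0932) and Pycr1 (-0.07, adjusted p = 0.651) of proline synthesis, the serine hydroxymethyltransferase Shmt2 (-0.15, adjusted p = 0.441) and Cth, which makes cysteine (0.11, adjusted p = 0.516). DESeq2 called Aldh18a1 lower (adjusted p = 0.0303). The counts of Aldh18a1 and Shmt2 are in part uncertain, since 21.9% and 18.7% of their windows are shared with genes on the opposite strand (Gm58925 and Gm27042, and Ndufa4l2).

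Of the transporters, 2 of 7 were lower and 0 higher, with a median log2 fold change of -0.26. Slc1a4, a carrier of alanine, serine and cysteine (ENSMUSG00000020142, GRCm39 chr11:20252180-20282774, minus strand), had 197, 174, 206 and 210 CPM in TG-1 to TG-4, against 344, 301, 249 and 240 CPM in WT-1 to WT-4. Its groups did not overlap, and WT-1 and WT-2 were the highest (log2 fold change -0.53 ± 0.12, adjusted p = 0.00753). Slc7a5, the light chain of the carrier of large neutral amino acids, had 65.9, 39.9, 51.7 and 49.1 CPM in TG-1 to TG-4, against 107, 85.1, 64 and 64.9 CPM in WT-1 to WT-4. TG-1 lay above WT-3 and WT-4, so the groups overlapped although the gene was called (log2 fold change -0.63 ± 0.19, adjusted p = 0.0457). Its call was lost without TG-2, TG-3, TG-4, WT-1 or WT-2, 1 at a time (adjusted p up to 0.101).

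Slc7a11, the cystine and glutamate exchanger, had 8.56, 3.87, 3.66 and 2.43 CPM in TG-1 to TG-4, against 7.27, 11.3, 6.89 and 10.7 CPM in WT-1 to WT-4. TG-1 reached the WT range, while the other 3 TG libraries were the lowest of the 8, and the gene was not called in edgeR (log2 fold change -0.95 ± 0.34, adjusted p = 0.0832). It passed the threshold as lower in DESeq2 (adjusted p = 0.0204), in limma voom (adjusted p = 0.0406) and in edgeR without TG-1 (-1.43, adjusted p = 0.00518). Slc3a2, the heavy chain that pairs with Slc7a5 and Slc7a11, was not called (-0.26, adjusted p = 0.251), nor was the carrier of basic amino acids Slc7a1 (-0.21, adjusted p = 0.109). Slc7a1 was called lower with the correction for GC content and length (adjusted p = 0.0438). Of the Slc3a2 windows, 19.3% occur in other transcripts, among them Snhg1 on the opposite strand, so its counts are in part uncertain. The glutamine carrier Slc1a5 (0.17, adjusted p = 0.507) and the neutral amino acid carrier Slc38a2 (0.11, adjusted p = 0.621) were fitted above 0, without a call.

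Among the effectors and regulators, Cebpb, a C/EBP transcription factor (ENSMUSG00000056501, GRCm39 chr2:167530835-167532338, plus strand), was the 1 gene called. It had 4, 6.04, 4.51 and 4.4 CPM in TG-1 to TG-4, against 6.95, 7.51, 7.82 and 7.95 CPM in WT-1 to WT-4, on 58 to 117 counts per library. TG-2 was the highest TG library and stayed below WT-1 (log2 fold change -0.68 ± 0.16, adjusted p = 0.0125), and the call was lost without TG-1, at an adjusted p of 0.0514. Its windows are shared in 17.2% with Peds1 on the opposite strand. Cebpg, its relative, was not called (-0.06, adjusted p = 0.665).

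Chac1, which degrades glutathione and is a known ATF4 target, had 41, 2.67, 5.41 and 4.78 CPM in TG-1 to TG-4, against 40.9, 34.7, 6.89 and 6.17 CPM in WT-1 to WT-4. TG-1, WT-1 and WT-2 were high and the other 5 libraries were low, so the variation ran within both groups and no difference could be detected (log2 fold change -0.70 ± 1.09, adjusted p = 0.703). Sesn2, a stress-induced inhibitor of mTORC1 signalling, had 17.4, 14.4, 11.1 and 8.58 CPM in TG-1 to TG-4, against 11.2, 8, 10.1 and 9.22 CPM in WT-1 to WT-4. TG-1 and TG-2 were above all WT libraries, and TG-3 and TG-4 were within the WT range (log2 fold change 0.42 ± 0.19, adjusted p = 0.144), and without TG-4 the gene passed the threshold as higher (0.57, adjusted p = 0.0343). The phosphatase subunit Ppp1r15a (GADD34), which is stress-induced, had 30.8, 18.8, 27.9 and 23.2 CPM in TG-1 to TG-4, against 22.4, 32.1, 25.7 and 25.9 CPM in WT-1 to WT-4, with overlapping groups (log2 fold change -0.07 ± 0.15, adjusted p = 0.759). Its constitutive relative Ppp1r15b was also not called (-0.02, adjusted p = 0.9), and 10.5% of its windows are shared with Gm26616 on the opposite strand.

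**Figure D4:**
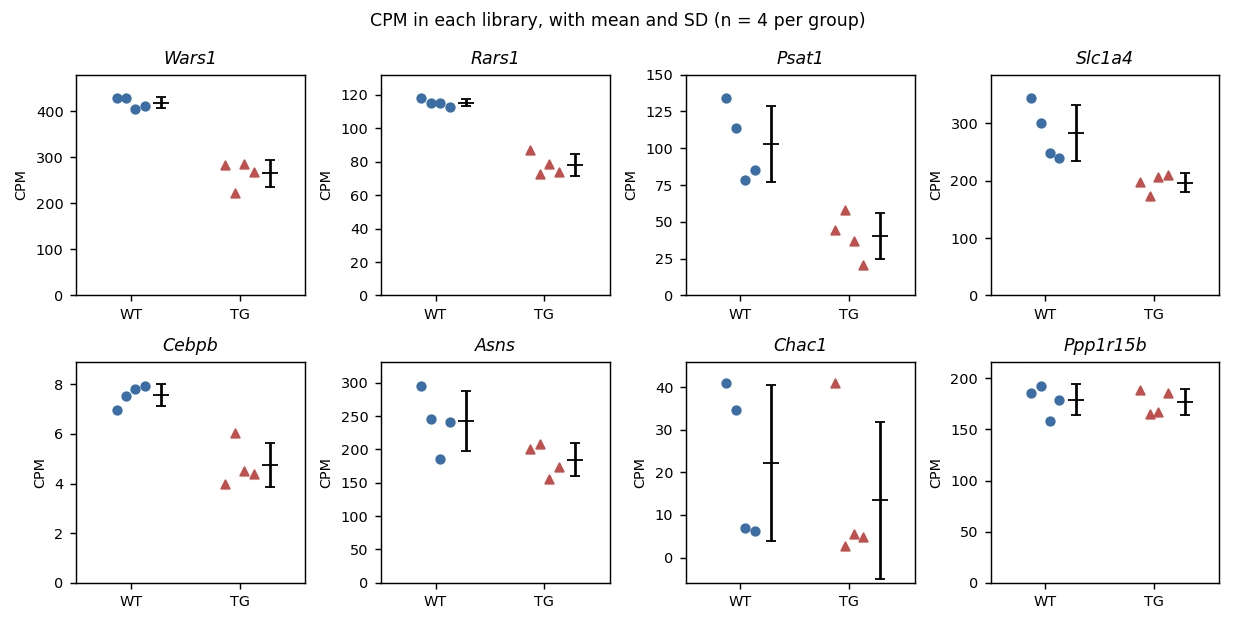
CPM of 8 genes in each library, WT as circles and TG as triangles in the order of replicate number, with the mean and SD of each group (n = 4) beside them in black. Wars1, Rars1, Psat1, Slc1a4 and Cebpb separate by group, Asns overlaps, Ppp1r15b is level, and Chac1 is high in TG-1, WT-1 and WT-2 only.

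Several of these genes varied in step with the replicate numbers within both groups, a pattern that was looked for after the values had been seen. In 9 of the 41 genes, replicates 1 and 2 were both above replicates 3 and 4 within TG and also within WT, and in 0 of the 41 they were both below. Over all genes tested these patterns occurred in 2.88% and 3.30%. The 9 genes were 6 of the 9 metabolic enzymes (Asns, Psat1, Phgdh, Psph, Shmt2 and Mthfd2), the synthetases Aars1 and Gars1, and Slc3a2. Of the stress transcription factors and targets outside the 41, 7 of the 13 tested did the same, namely Nupr1, Ddit4, Gdf15, Gpt2, Pck2, Aldh1l2 and Slc6a9. Aldh1l2, a mitochondrial folate enzyme, for example had 46.6, 67.5, 26.8 and 18 CPM in TG-1 to TG-4, against 40.1, 44.1, 18.4 and 29.4 CPM in WT-1 to WT-4. Replicates 1 and 2 are the libraries without Y-linked counts, so this split cannot be told apart from whatever else set those libraries apart. With total counts only, the first pattern occurred in 7 of the 41 genes and in 1.69% of all genes tested.

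The comparison of TG with WT was therefore also made within each pair of replicate numbers. Among replicates 1 and 2, 10 of the 41 genes were called lower (5.29% of all genes tested there) and Sesn2 was called higher (log2 fold change 0.73). Among replicates 3 and 4, 4 were called lower, namely Wars1, Rars1, Psat1 and Slc7a11 (0.857% of all genes tested there), and 0 higher. The median log2 fold change of the 41 genes was -0.28 and -0.29 in these 2 sets, and that of the synthetases was -0.37 and -0.31, with 18 and 19 of the 19 fitted below 0. Slc1a4 was at -0.80 in replicates 1 and 2 and at -0.23 in replicates 3 and 4. In a test of this interaction by edgeR, 0 of the 41 genes passed the threshold, 3 had an unadjusted p below 0.05, and 0.0251% of all genes passed.

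The upstream part of the pathway was lower in part. Of 12 genes for the eIF2 kinases, eIF2 and its exchange factor eIF2B, 7 (58.3%) were called lower and 0 higher. Of all genes tested, 9.65% were called lower and 8.26% higher. The median log2 fold change of the 12 was -0.31. Among the 4 kinases, Eif2ak3 (PERK, which senses stress of the endoplasmic reticulum) had 71.4, 66.8, 64.7 and 71.3 CPM in TG-1 to TG-4, against 77.1, 90, 77.5 and 88.2 CPM in WT-1 to WT-4. Its groups did not overlap (log2 fold change -0.28 ± 0.09, adjusted p = 0.0354). The other kinases were not called: the heme-sensing Eif2ak1 (HRI, 0.07, adjusted p = 0.577), the RNA-sensing Eif2ak2 (PKR, -0.05, adjusted p = 0.772) and Eif2ak4 (GCN2, which senses uncharged tRNA, 0.24, adjusted p = 0.209), although without WT-2 Eif2ak4 passed the threshold as higher (0.38, adjusted p = 0.0394). The eIF2 subunits Eif2s1 (log2 fold change -0.45 ± 0.09, adjusted p = 0.00462) and Eif2s2 (log2 fold change -0.45 ± 0.09, adjusted p = 0.00384) were lower. Of the eIF2B subunits, Eif2b5 (log2 fold change -0.34 ± 0.08, adjusted p = 0.0147), Eif2b1 (log2 fold change -0.34 ± 0.09, adjusted p = 0.0227), Eif2b4 (log2 fold change -0.34 ± 0.10, adjusted p = 0.0283) and Eif2b3 (log2 fold change -0.53 ± 0.16, adjusted p = 0.0333) were lower. Without TG-1, or without TG-2, only the calls of Eif2s1 and Eif2s2 were left among the 12, that is 2 genes. Single further libraries also ended the calls of Eif2ak3 (TG-3, WT-2 or WT-4), Eif2b3 (WT-1 or WT-4) and Eif2b4 (WT-1). With total counts only, 0 of the 12 were called, against 2.20% of all genes tested called lower.

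Atf4 itself had 258, 206, 252 and 286 CPM in TG-1 to TG-4, against 294, 317, 266 and 294 CPM in WT-1 to WT-4. TG-2 was the lowest library and TG-4 lay within the WT range (log2 fold change -0.23 ± 0.11, adjusted p = 0.149). Atf5, a related transcription factor, had 3.81, 5.13, 4.74 and 5.39 CPM in TG-1 to TG-4, against 13.4, 10.6, 8.69 and 5.87 CPM in WT-1 to WT-4. The groups did not overlap, and WT-4 was nearest to TG (log2 fold change -1.02 ± 0.22, adjusted p = 0.00752). Atf3, another stress-induced factor, had 4.12, 2.6, 4.57 and 2.96 CPM in TG-1 to TG-4, against 6.23, 6.19, 7.35 and 4.39 CPM in WT-1 to WT-4. TG-3 lay above WT-4 (log2 fold change -0.75 ± 0.22, adjusted p = 0.0286), and the call was lost without TG-1, TG-2, TG-4 or WT-3, 1 at a time. Ddit3 (CHOP) was at 3.58 ± 0.428 CPM in TG and 4.06 ± 0.535 CPM in WT (log2 fold change -0.18 ± 0.19, adjusted p = 0.525; means with SD over 4 libraries), within the reservation on its overlap with Mars1. Trib3 had 7.62, 1.76, 2.14 and 1.97 CPM in TG-1 to TG-4, against 5.75, 3.83, 1.8 and 1.93 CPM in WT-1 to WT-4, and, like Chac1, was highest in TG-1, WT-1 and WT-2 (log2 fold change 0.04 ± 0.58, adjusted p = 0.969). In all, 2 of the 13 tested genes of this list were called lower (15.4%, against 9.65% of all genes tested) and 0 higher. A further 5 genes (Stc2, Fgf21, Bcat1, Slc7a3 and Jdp2) were too low to be tested.

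The 17 mitochondrial synthetases, which charge tRNAs for the mitochondrial ribosome, had a median log2 fold change of -0.12. In edgeR 0 of 17 were called, against 9.65% of all genes tested called lower and 8.26% called higher. An unadjusted p below 0.05 was found for 4 of the 17, against 3943 of all 11929 genes tested. DESeq2 called 1 (Lars2), and limma voom called Lars2 (adjusted p = 0.00897) and Ears2 (adjusted p = 0.0387). Lars2 had 171, 384, 204 and 120 CPM in TG-1 to TG-4, against 1321, 570, 457 and 438 CPM in WT-1 to WT-4. WT-1 was far above the other libraries, and every TG library was below every WT library (log2 fold change -1.67 ± 0.53, adjusted p = 0.0819). In edgeR, Lars2 passed as lower among replicates 3 and 4 (-1.46, adjusted p = 0.0254), and Ears2 passed with the correction for GC content and length (-0.35, adjusted p = 0.0468) and without TG-4 (adjusted p = 0.0497). Lars2 was also called with Y-linked counts as a term, and Yars2 without WT-4 (adjusted p = 0.0492). No test of the difference between the cytosolic and mitochondrial sets was made. Of 5 partners or relatives of the cytosolic synthetases, 3 were called lower, among them the scaffold proteins Aimp2 (log2 fold change -0.42 ± 0.12, adjusted p = 0.0285) and Eef1e1 (log2 fold change -0.68 ± 0.13, adjusted p = 0.00344). Of 11 tested neighbours in folate, proline and glutamine metabolism, 1 was called lower (9.09%, near the 9.65% of all genes tested) and 0 higher, with a median log2 fold change of 0.09. The call of Aimp2 was lost without TG-1, TG-2, TG-3, WT-1, WT-3 or WT-4, 1 at a time. Over these lists together 13 genes were called lower, and 6 without TG-1 or without TG-2.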

How the data were processed

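Stranded mRNA libraries were made from total RNA of FACS-sorted Paneth cells of mouse small intestine. The values deposited by the authors are raw gene counts per Ensembl identifier and library. The submitters' processing notes list FastQC 0.12.0, STAR 2.7.0a, DESeq2 and the build mm39 without their roles. How reads were counted (tool, annotation, strand setting) is not stated in those sources, so members with over 10% of windows shared with other transcripts are marked. Members and lists were chosen with earlier results of these data known.

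Of the 55414 identifiers, 54749 matched GENCODE. Counts were fitted in edgeR 4.0.16 (R 4.3.3) with TMM factors, filterByExpr by group and the robust quasi-likelihood test of TG against WT, with Benjamini-Hochberg adjustment over 11929 genes and a threshold of 0.05. All SE belong to log2 fold changes. DESeq2 1.42.0 and limma 3.58.1 (voom) were alternatives, beside other scalings, filters, a replicate block, leaving out libraries, Y-linked counts and GC content with length. On simulated counts with 200 genes changed by 1 on the log2 scale, 86.5% were recovered with 11 false calls among 11799 genes. Recovery of smaller changes, such as those of the cytosolic synthetases (-0.66 to -0.08), was not simulated. No 2 replicates agreed within sampling noise (chi-square per degree of freedom at least 5.2). Shared reads were estimated from 75-base transcript windows.

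Named genes were all called members, 7 members fixed by name (Asns, Chac1, Sesn2, Slc7a11, Ppp1r15a, Mthfd2 and Psat1), Atf4, Atf3, Ddit3, Trib3, the 4 eIF2 kinases, and up to 5 called genes per list by smallest p. The further genes named with the replicate split, with DESeq2 or with a list's untested members were named after their values were seen. A few genes of the other lists and 1 promoter site are not reported here.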

Additional observations from a re-analysis of the deposited data

Results flagged for a closer look

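In 5 of 120 groups of 4 libraries examined (60 named genes in 2 groups), 1 library stood apart from the other 3 by more than Dixon's 95% limit for the gap over the range. Chance alone gives about 6 such groups. Chac1 was 41 CPM in TG-1 against 2.67 to 5.41 CPM in the other TG libraries (ratio 0.928), and Trib3 was 7.62 CPM in TG-1 against 1.76 to 2.14 CPM (ratio 0.934). Eif2s1 was 37.6 CPM in TG-3 against 32.0 to 32.1 CPM (ratio 0.997), and Mars1 was 80.2 CPM in TG-2 against 68.7 to 70.6 CPM (ratio 0.831). In WT, Eif2b4 was 44.8 CPM in WT-1 against 35.4 to 36.5 CPM (ratio 0.884).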

How the results depend on the processing

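The count of the 41 genes called lower was 18, and it was 23 with DESeq2, 21 with limma voom, 17 with RLE factors, no filter or a filter of 1 CPM in 4 libraries, 18 without alpha-defensin genes in the factors, and 19 with Y-linked counts as a term or with the GC and length offset. It fell to 4 with total counts only, to 10 in the libraries without Y-linked counts and to 4 in those with them, which are 2 libraries per group. Leaving out 1 library in turn gave 14 to 19. The count called higher was 0 and became 1 (Sesn2) with no filter and in the libraries without Y-linked counts, and was 0 to 1 when 1 library was left out. DESeq2 and limma voom kept all 18 calls. The number of genes called lower over the whole table moved too, so these counts are not separate from it. It was 1151 in the main fit, 1303 by DESeq2 and 263 under total-count scaling. The offset for GC content and length gave 1258, and fits lacking 1 library gave 549 to 1183.

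Of the other lists, 13 genes were called lower, but 3 with total counts only, 6 in the libraries without Y-linked counts, 1 in those with them, and 6 to 13 when 1 library was left out. Called higher were 0, but 1 with DESeq2 (Oat), 2 with limma voom (Gpt2 among them), 2 with no filter (Oat and Gpt2), 1 with the replicate block (Gpt2), 1 in the libraries without Y-linked counts (Oat), 1 with Y-linked counts as a term (Gpt2), 1 with the GC and length offset (Oat), and 0 to 2 when 1 library was left out (Oat without TG-4, and Eif2ak4 and 1 other gene without WT-2).

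Of the 60 named genes examined above, none was called where its log2 fold change turned. Among the markers, the goblet gene Clca1 turned from -0.37 to 1.72 in the libraries with Y-linked counts, and edgeR called it there (adjusted p = 0.00957). With total counts only Mars1 turned to 0.04, Pycr1 to 0.05, Cebpg to 0.06, Ppp1r15a to 0.03, Ppp1r15b to 0.10 and Eif2ak2 to 0.06. In the libraries without Y-linked counts Mars1 was at 0.01, Slc1a5 at -0.14, Eif2ak2 at 0.01 and Trib3 at -0.01, and in those with them Pycr1 was at 0.01 and Ppp1r15b at 0.07. When 1 library was left out, Ppp1r15a ranged from -0.18 to 0.04, Ppp1r15b from -0.08 to 0.02, Slc38a2 from -0.01 to 0.22 and Trib3 from -0.74 to 0.43. The causes were not tested.

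Same-numbered TG and WT libraries correlated at 0.0762, 0.0666, 0.286 and 0.231 in their deviations from the group means, not all above 0.1, and not every library correlated best with its own number, so the numbers were not taken as pairs. With the replicate block, 18 of the 41 genes were called lower, of which 17 were called without it: Sars1 lost its call and Asns gained one (adjusted p = 0.012), and Trib3 was at -0.07. The shorter element TGATGNA was found in 34.1% of the 41 promoters, against 11.2% of all promoters. Psph, Cebpb and Slc7a11 rest on few counts (32 to 164 per library).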
